A study of Mus musculus with 35 samples.

Results

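The genes described here are 10 subunits of the BAF chromatin remodelling complex that are exchanged between neural progenitors and neurons, or that belong to the same gene families: *Actl6a*, *Actl6b*, *Phf10*, *Dpf1*, *Dpf3*, *Ss18*, *Ss18l1*, *Smarca4*, *Smarca2* and *Smarcd3*. They were taken by name, with earlier results of these data known, from the 53465 genes listed in the bulk expression table. All 10 passed the filter on low values that left 19765 genes for testing. All samples came from E14.5 mouse brain. From 3 wild-type brains, named here by their neural libraries N-340, N-343 and N-346, 4 populations were sorted by surface markers and sequenced in bulk, giving 12 libraries of neural cells (negative for every marker), mural cells (PDGFRβ high), endothelial cells (PECAM1 and CD102 high) and microglia (CD45 medium, CD11b positive). Single cells of these 4 populations, with CD41 in place of CD11b in the microglial gate as the table of sort gates names it, were sequenced from wild-type plates 1 to 3, which by the study's methods drew on 3 independent brains, and single cells labelled Mof Knockout from plates 4 to 6. The sort gate, allele and driver of the knockout cells were not given in the sources used here, nor was the way in which brains fall on plates, so p-values for single cells measure the spread between plates, which may be technical.

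BAF (SWI/SNF) complexes slide and evict nucleosomes with energy from ATP hydrolysis by one of a pair of ATPases, BRG1 (*Smarca4*) or BRM (*Smarca2*). Around the ATPase sit subunits drawn from small gene families, and the family member that is used differs between cell types. As neural progenitors leave the cell cycle, the actin-like subunit encoded by *Actl6a* gives way to that of *Actl6b*, the PHD-finger subunit of *Phf10* to those of *Dpf1* and *Dpf3*, and *Ss18* to its relative *Ss18l1* (CREST). *Smarcd3* encodes a SWIB-domain subunit known from heart, muscle and neurons. Repression of *Actl6a* by neural microRNAs, among them miR-9-3p, is a known step of the exchange.

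The sequences of that step and of the promoters on both sides of the exchange are shown first. The mature microRNA and the promoters are from RefSeq (GRCm38.p6), and the seed of the microRNA (bases 2 to 8) is in capitals. The genes *Mir9-1* (chr3:88215652-88215673), *Mir9-3* (chr7:79505318-79505339) and *Mir9-2* (chr13:83738858-83738879), all on the plus strand, encode the same mature sequence.
mmu-miR-9-3p: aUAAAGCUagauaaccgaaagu

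The seed match AGCTTTA was searched on the transcribed strand in every annotated 3′UTR of the 10 members (GENCODE vM21, GRCm38). It was found in *Actl6a* and *Smarca2* and not in the other 8. The *Actl6a* site lies in a 3′UTR of 376 bases, at chr3:32726626-32726647 on the plus strand. The *Smarca2* site lies in a 3′UTR of 179 bases that belongs to 1 annotated transcript, at chr19:26777488-26777509 on the plus strand. The match is in capitals in both. MicroRNA levels were not part of the tables, so the matches describe sequence only.
Actl6a site: acctcaacgtctgtAGCTTTAg
Smarca2 site: tgtcatctagaactAGCTTTAg

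The promoters of the outgoing *Actl6a* and of the incoming *Actl6b*, *Dpf1* and *Dpf3* are given as the 250 bases before the RefSeq start of each gene, along its own strand, with CCAAT on either strand (read as CCAAT or ATTGG) in capitals.
Actl6a promoter (chr3:32708296-32708545, plus strand): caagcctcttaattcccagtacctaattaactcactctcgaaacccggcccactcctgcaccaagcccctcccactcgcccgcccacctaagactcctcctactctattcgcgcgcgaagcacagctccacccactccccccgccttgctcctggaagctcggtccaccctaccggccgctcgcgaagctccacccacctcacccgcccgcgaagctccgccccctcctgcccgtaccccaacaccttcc
Actl6b promoter (chr5:137553296-137553545, plus strand): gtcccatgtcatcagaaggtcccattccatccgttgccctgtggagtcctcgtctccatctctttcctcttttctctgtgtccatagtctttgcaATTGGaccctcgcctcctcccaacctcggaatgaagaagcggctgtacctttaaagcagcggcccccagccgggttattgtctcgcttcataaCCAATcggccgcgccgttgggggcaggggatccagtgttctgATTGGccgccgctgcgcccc
Dpf1 promoter (chr7:29303755-29304004, plus strand): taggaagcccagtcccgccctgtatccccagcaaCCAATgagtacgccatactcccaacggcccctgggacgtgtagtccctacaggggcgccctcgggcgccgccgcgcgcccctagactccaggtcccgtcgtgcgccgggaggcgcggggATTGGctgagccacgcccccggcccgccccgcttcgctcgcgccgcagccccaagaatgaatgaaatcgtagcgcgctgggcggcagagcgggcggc
Dpf3 promoter (chr12:83487737-83487986, minus strand): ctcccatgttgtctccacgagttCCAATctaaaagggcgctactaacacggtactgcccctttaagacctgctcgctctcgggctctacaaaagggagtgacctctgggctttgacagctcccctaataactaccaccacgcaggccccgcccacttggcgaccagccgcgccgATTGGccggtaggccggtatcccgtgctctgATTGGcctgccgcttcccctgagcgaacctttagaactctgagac

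CCAAT stood 155, 62 and 20 bases before the start of *Actl6b*, 216 and 97 bases before that of *Dpf1*, and 227, 76 and 45 bases before that of *Dpf3*. These were the 3 members of the 9 matched in the promoter table that held it, against 33.8% of all 32851 promoters of the same length. The GC box core GGGCGG, searched on both strands, was present in 8 of the 9 members (32.7% of all promoters), with *Actl6b* the exception. TATAAA, searched on both strands, was in 0 of the 9 (12.4% of all promoters).

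In the annotation, *Actl6a* (ENSMUSG00000027671) lies at chr3:32706298-32726973 and *Actl6b* (ENSMUSG00000029712) at chr5:137553517-137569582, both on the plus strand. *Phf10* (ENSMUSG00000023883) lies at chr17:14945009-14961273 and *Dpf3* (ENSMUSG00000021221) at chr12:83213745-83487716, both on the minus strand, and *Dpf1* (ENSMUSG00000030584) at chr7:29303951-29318243 on the plus strand. *Ss18* (ENSMUSG00000037013) lies at chr18:14624198-14682914 on the minus strand and *Ss18l1* (ENSMUSG00000039086) at chr2:180042509-180070201 on the plus strand. *Smarca4* (ENSMUSG00000032187) lies at chr9:21616169-21704230 and *Smarca2* (ENSMUSG00000024921) at chr19:26605050-26778322, both on the plus strand, and *Smarcd3* (ENSMUSG00000028949) at chr5:24590818-24624411 on the minus strand. Of the 5120 exon bases of *Smarcd3*, 2466 are shared with *Chpf2* on the opposite strand. *Actl6a* shares 452 exon bases with *Mrpl47* and *Phf10* shares 470 with *1600012H06Rik*, each on the opposite strand. Whether reads were counted by strand was not given in the sources used here, and without strand the reads of such a pair cannot be told apart in bulk.

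The bulk libraries held 17638358 to 98414914 reads on genes. The neural libraries were made with another RNA kit and library kit (TruSeq) than the 9 others (SMART-Seq v4 with Nextera XT), so a bulk difference between neural cells and the rest cannot be told apart from one between kits. The 9 fixed neuron markers summed to between 128857 and 135517 normalized counts in neural libraries and to between 3048 and 5313 in the others, which is 2.31 to 4.03% of the neural mean, and none of the 9 was at 0 in any library. The neural progenitor markers overlapped between neural (37091 to 41546) and mural libraries (22065 to 42038). In bulk, fewer cells of a type and less RNA per cell cannot be told apart.

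In bulk, 7 of the 10 subunits were higher in neural cells than in the mean of the other 3 populations, 2 were lower and 1 did not pass the test (limma, Benjamini-Hochberg adjusted p under 0.05). This count stands beside a background of 64.2% of all genes called in this comparison, 32.9% higher and 31.2% lower. The median log2 difference was 2.96 over the members and 0.09 over all genes tested. The 3 neural libraries lay above all 9 others for the same 7 members, as they did for 25.2% of all genes, and below all 9 for *Ss18*, as for 17.3% of all genes.

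Of the actin-like pair, the neuronal member separated neural libraries from all others in bulk. *Actl6b*, the neuronal actin-like subunit, had normalized counts of 2381, 2388 and 2350.5 in the neural libraries of the 3 brains, listed by rising brain number here and in all that follows. In the same order it had 0.874, 108 and 16.9 in mural, 0, 66.7 and 104 in endothelial, and 143, 61.7 and 51.6 in microglial libraries. Neural libraries stood far above the rest, and the 3 other populations overlapped each other. Their means were 1.77% (mural), 2.40% (endothelial) and 3.59% (microglial) of the neural mean, beside the 2.31 to 4.03% of the neuron markers in those libraries. The part of neurons among the sorted cells in these values was not tested. The neural minus other log2 difference of *Actl6b* was 6.38 ± 1.41 (SE; limma, adjusted p = 0.00234, n = 3 brains).

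*Actl6a*, the progenitor actin-like subunit, was present in every population. Its normalized counts were 2696, 2745 and 2736 in neural, 3156, 3563 and 2148 in mural, 1884, 1351 and 2674 in endothelial, and 1923, 1653 and 1492 in microglial libraries. Mural and neural libraries overlapped at the top of this order, neural lay above endothelial libraries without overlap, and endothelial and microglial libraries overlapped. The neural minus other difference was 0.38 ± 0.20 on the log2 scale and did not pass the test (limma, adjusted p = 0.126). Per kilobase of exon, *Actl6b* stood at 0.782 to 0.804 of the *Actl6a* level in neural libraries and at no more than 0.0675 of it in any other.

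**Figure D1:**
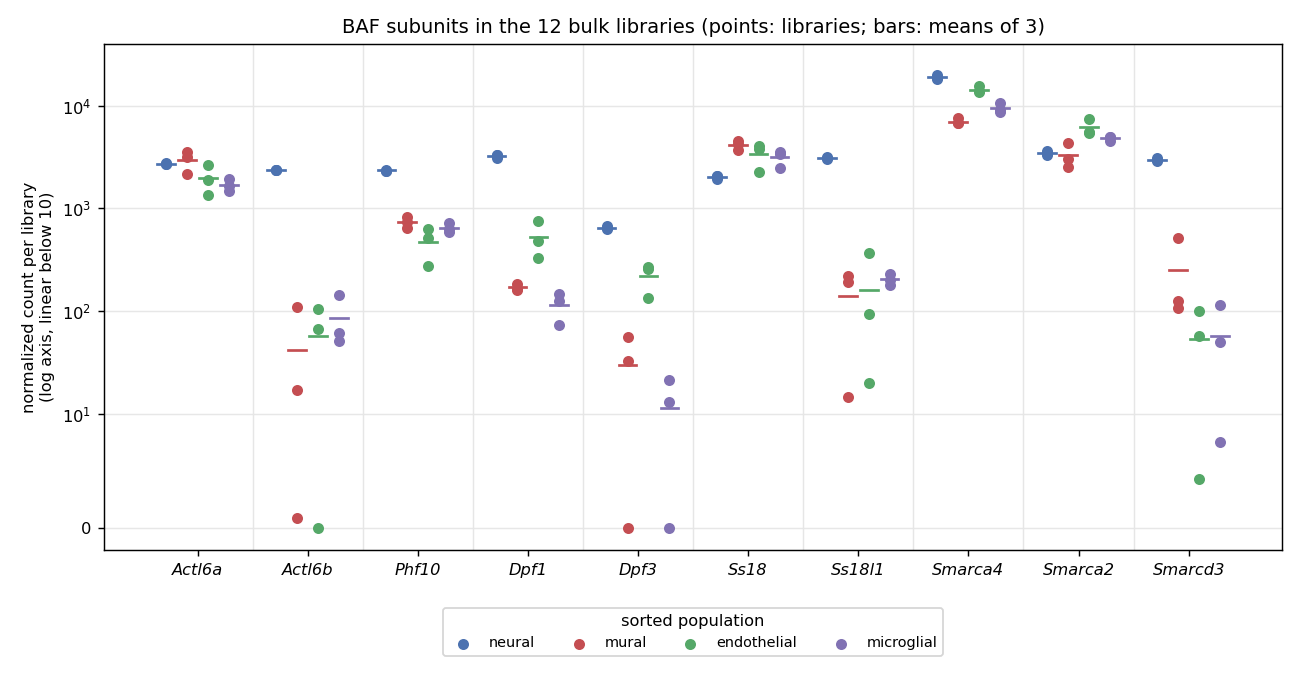
Normalized counts of the 10 subunits in the 12 bulk libraries, on a log axis that is linear below 10. Each point is a library and each bar the mean of 3. Neural points of *Actl6b*, *Phf10*, *Dpf1*, *Dpf3*, *Ss18l1*, *Smarca4* and *Smarcd3* lie above all others, and those of *Ss18* below.

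Among the PHD-finger subunits, both the outgoing and the incoming forms were highest in neural libraries. *Phf10*, the progenitor form, had normalized counts of 2379.7, 2335 and 2307 in neural, 744, 831 and 647 in mural, 276, 512 and 636 in endothelial, and 582, 629.7 and 725 in microglial libraries. The neural libraries lay above the rest. Microglial libraries overlapped both mural and endothelial ones, and mural lay above endothelial libraries without overlap. Its neural minus other log2 difference was 1.97 ± 0.23 (limma, adjusted p = 2.35e-05).

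*Dpf1*, a neuronal PHD-finger subunit, had normalized counts of 3308, 3120.5 and 3338 in neural, 163, 161 and 185 in mural, 328, 761 and 484 in endothelial, and 73.7, 124 and 146 in microglial libraries. The order neural, endothelial, mural, microglial held without overlap between neighbours. The neural minus other log2 difference was 3.95 ± 0.28 (limma, adjusted p = 5.86e-07).

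*Dpf3*, its relative, known also from heart and muscle, was the least abundant member in neural libraries per kilobase of exon (154, against 215 for *Ss18*, the next), with normalized counts of 670.4, 651 and 632 in neural, 32.8, 0 and 56.4 in mural, 133, 271 and 258 in endothelial, and 21.4, 13.04 and 0 in microglial libraries. Neural libraries were highest and endothelial libraries next, again without overlap. The neural minus other log2 difference was 4.64 ± 1.21 (limma, adjusted p = 0.00612).

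In endothelial libraries both neuronal PHD-finger subunits stood at a larger share of their neural level than the neuron markers did. As a share of the neural mean, *Dpf1* reached 16.1% (10.1 to 23.4%) and *Dpf3* 33.9% (20.4 to 41.6%) in endothelial libraries, where the neuron markers reached 2.52 to 3.44%. The shares were 5.21 and 4.56% in mural and 3.52 and 1.76% in microglial libraries. Erythroid markers were also highest in endothelial libraries, though mural and microglial libraries stood in the other order than for these shares. The 6 fixed ones summed to 13054 to 34038 normalized counts in endothelial, 9021 to 11826 in neural, 1667 to 2075 in microglial and 242 to 598 in mural libraries, with none of the 6 at 0 in endothelial libraries. The endothelial library with the highest erythroid sum (brain N-346) was not the highest for *Dpf1* or *Dpf3*, and the part of erythroid cells in these values was not tested. Endothelial minus microglial log2 differences were 2.15 ± 0.34 for *Dpf1* (limma, adjusted p = 0.000575) and 4.96 ± 1.48 for *Dpf3* (adjusted p = 0.0249). The *Dpf3* call was lost without brain N-340 (adjusted p = 0.0814) and without brain N-346 (adjusted p = 0.188). Mural minus endothelial differences were -1.54 ± 0.34 for *Dpf1* (adjusted p = 0.00671) and -4.08 ± 1.48 for *Dpf3* (adjusted p = 0.0623, not called), and *Dpf1* was no longer called without brain N-343 (adjusted p = 0.104) or N-346 (adjusted p = 0.0666). *Dpf3* was called here with DESeq2 (adjusted p = 0.0455) and with a pseudocount of 5 (limma, adjusted p = 0.0179), and in no other alternative. Relative to *Phf10*, per kilobase of exon, *Dpf1* stood at 1.27, 1.22 and 1.32 in neural and at 1.08, 1.36 and 0.695 in endothelial libraries, which overlap. It stood at 0.116 to 0.261 in mural and microglial libraries. The *Dpf3* to *Phf10* ratio was higher in the endothelial (0.471 to 0.615) than in the neural libraries (0.318 to 0.328), with no overlap.

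*Ss18* and *Ss18l1*, the interchangeable SS18-family subunits, ran in opposite directions. *Ss18l1*, the neuronal form, had normalized counts of 3166, 3115 and 3047 in neural, 14.4, 219 and 191 in mural, 93.9, 19.9 and 368 in endothelial, and 232, 178 and 201 in microglial libraries, and its neural minus other log2 difference was 4.74 ± 0.88 (limma, adjusted p = 0.000779). *Ss18*, the progenitor form, had 1952, 2051 and 2078 in neural, 4261, 3693 and 4586 in mural, 4063, 3786 and 2255 in endothelial, and 3583, 3409 and 2500.3 in microglial libraries. Neural libraries were the lowest for *Ss18* and endothelial libraries overlapped both mural and microglial ones, while mural lay above microglial libraries without overlap. Its log2 difference was -0.78 ± 0.18 (limma, adjusted p = 0.00291), and the call was lost without brain N-340 (adjusted p = 0.0547). Per kilobase, *Ss18l1* stood at 3.52, 3.30 and 3.18 of the *Ss18* level in neural libraries and at 0.00734 to 0.354 in the 9 others.

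**Figure D2:**
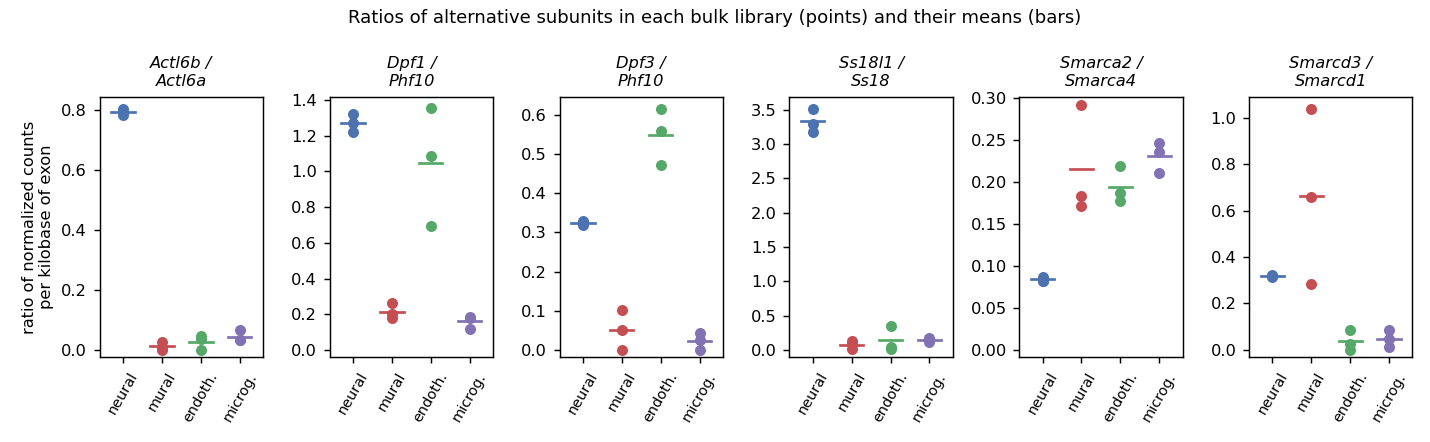
Ratios of normalized counts per kilobase of exon for 6 pairs of subunits in each bulk library (points) with population means (bars), each panel on its own linear axis. *Actl6b* to *Actl6a* and *Ss18l1* to *Ss18* are high in neural libraries alone, while *Dpf1* to *Phf10* overlaps between endothelial (0.695 to 1.36) and neural libraries (1.22 to 1.32).

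Of the ATPases, *Smarca4* was the most abundant member and separated all 4 populations. Its normalized counts were 18445, 18137 and 20011 in neural, 13575, 15438 and 14061 in endothelial, 8791, 10734 and 9173 in microglial, and 7539, 6723 and 6758 in mural libraries, with no overlap between neighbours. The neural minus other log2 difference was 0.94 ± 0.08 (limma, adjusted p = 2.58e-06). Differences among the other populations were smaller or like in size, at 0.59 ± 0.10 for endothelial minus microglial (adjusted p = 0.000818), -0.45 ± 0.10 for mural minus microglial (adjusted p = 0.00427) and -1.03 ± 0.10 for mural minus endothelial cells (adjusted p = 2.37e-05). The mural minus microglial call was lost without brain N-343 (adjusted p = 0.0683) and without brain N-346 (adjusted p = 0.0528).

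*Smarca2*, the alternative ATPase, had another order. Its counts were 5583, 7448 and 5489.8 in endothelial, 4562, 4981 and 4989 in microglial, 3351, 3454 and 3634 in neural, and 3042, 4311 and 2543 in mural libraries. Endothelial libraries lay above microglial and microglial above neural ones without overlap, while neural and mural libraries overlapped. It was lower in mural than in endothelial cells (-0.92 ± 0.18, limma, adjusted p = 0.00357, and 0.0593 without brain N-340) and than in microglia (-0.59 ± 0.18, adjusted p = 0.0274, and not called with edgeR on whole reads, 0.0635, or with quantile normalization, 0.0532). The neural minus other difference was -0.39 ± 0.15 (adjusted p = 0.0403), and this call was lost on leaving out any 1 of the 3 brains (adjusted p of 0.162, 0.103 and 0.0561). It was also lost with edgeR on whole reads (adjusted p = 0.0546) and without the filter on low values (adjusted p = 0.0568). *Smarca2* stood at 0.0824 to 0.0864 of *Smarca4* per kilobase in neural libraries and at 0.171 to 0.291 in the 9 others.

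*Smarcd3*, the SWIB-domain subunit, had normalized counts of 2986, 2922 and 3068 in neural, 107, 125.6 and 518 in mural, 99.2, 4.26 and 57.3 in endothelial, and 49.9, 114 and 7.55 in microglial libraries. Neural libraries were far above the rest. Microglial libraries overlapped both mural and endothelial ones, and mural lay above endothelial libraries without overlap. Its neural difference was, on the log2 scale, 5.63 ± 0.96 (limma, adjusted p = 0.000408). Relative to its family member *Smarcd1*, which is used more widely, *Smarcd3* was not highest in neural cells. The per-kilobase ratio was 0.314 to 0.323 in neural, 0.284, 0.66 and 1.04 in mural, 0.00138 to 0.0842 in endothelial and 0.0113 to 0.0868 in microglial libraries. The mural ratio rested on *Smarcd1* counts of 150 to 393, against 7267 to 7546 in neural libraries.

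Between the non-neural populations 3 of the 10 members were called in each bulk comparison. These were *Dpf1*, *Smarca4* and *Smarca2*, all lower in mural than in endothelial cells (background 27.8% of genes called), *Dpf3*, *Dpf1* and *Smarca4*, all higher in endothelial cells than in microglia (background 32.4%), and *Actl6a* with the ATPases between mural cells and microglia (background 38%, with 17.9% higher and 20.1% lower). The 7 members not called had log2 differences of -4.08 to 2.62 for mural minus endothelial, -2.02 to 0.34 for endothelial minus microglial and -2.34 to 2.39 for mural minus microglial cells. *Actl6a* was higher in mural cells than in microglia by 0.78 ± 0.25 on the log2 scale (limma, adjusted p = 0.0298), and not called with brain as a block (adjusted p = 0.0518). The 8 neural progenitor markers moved with it, at 22065 to 42038 summed normalized counts in mural and 2043 to 3382 in microglial libraries with none at 0, and the mural libraries stood in the same order for both (brain N-343 highest, N-346 lowest). Their part in this difference was not tested. On leaving out a brain, 1 of these 3 mural minus microglial calls was left, namely *Smarca4* without brain N-340, *Smarca2* without N-343 and *Actl6a* without N-346. With a minimum of 2-fold, 0 were called (background 32%).

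The single-cell plates gave a view of the same gates in which all populations shared one protocol. Of 994 gated wells on wild-type plates, 686 held more than 1500 transcripts and were kept, namely 123 neural, 210 mural, 225 endothelial and 128 microglial. Transcripts were summed for each plate and gate and tested across plates with edgeR, and levels are given as CPM, the share of a gate's transcripts scaled as in counts per 1000000. 7 members had enough transcripts to be tested. In neural cells 5 of these 7 were higher and 0 lower than in the mean of the other gates (edgeR quasi-likelihood, adjusted p under 0.05), beside a background of 39.8% of genes called and 22.5% called higher. With a minimum of 2-fold, 3 of the 7 were called (background 33.5%). *Actl6b* passed the filter on counts only through the neural sums in which it is high, and *Smarcd3* also needed those sums to pass. Their calls add no support to these counts.

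*Actl6b* was again the clearest. It had 104 transcripts in neural cells (108 CPM over 3 plates, with 137, 80.5 and 87.6 on plates 1, 2 and 3), 5 in mural (3.22 CPM), 5 in endothelial (3.0 CPM) and 1 in microglial cells (0.730 CPM). The log2 difference was 5.45 ± 0.42 (edgeR, adjusted p = 1.18e-16). At least 1 *Actl6b* transcript was seen in 39.0% of the 123 neural cells (exact 95% interval 30.4 to 48.2%, median depth 7717 transcripts), and in 0.781% of the 128 microglia (0.0198 to 4.28%, median depth 10761 transcripts), a population that should lack it. With every cell thinned to 1500 transcripts the neural share was 11.4% and the microglial share 0%. *Actl6a* had 33, 30, 32 and 16 transcripts in neural, mural, endothelial and microglial cells (34.2, 19.3, 19.2 and 11.7 CPM), and its neural difference of 0.95 ± 0.39 passed narrowly (edgeR, adjusted p = 0.048). That call was lost with DESeq2 (adjusted p = 0.193), with cells above 3000 transcripts (0.0958), without the filter (0.179), without plate 3 (0.104) and with a 2-fold minimum. Intervals and floors on single-cell counts cover counting error only.

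The ATPases were both higher in neural cells by single-cell counts. *Smarca4* stood at 355 CPM in neural cells (356, 393 and 175 by plate), 177 in mural and in endothelial cells and 117 in microglia, with a log2 difference of 1.03 ± 0.24 (edgeR, adjusted p = 0.00044). *Smarca2* stood at 128 CPM in neural cells (179, 85.2 and 76.6 by plate), 76.2 in endothelial, 65.1 in mural and 56.2 in microglial cells, with a difference of 0.82 ± 0.26 (adjusted p = 0.00832). For *Smarca2* the direction is opposite to that in bulk (-0.39). Without plate 1 the *Smarca2* difference was 0.26 (adjusted p = 0.802). The *Smarca4* call was lost without plate 1 (edgeR, adjusted p = 0.0635) and without plate 2 (adjusted p = 0.0852).

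*Smarcd3* had 29 transcripts in neural (30.03 CPM), 38 in mural (24.5 CPM), 9 in endothelial (5.4 CPM) and 1 in microglial cells. It was higher in neural cells than in the mean of the others (2.44 ± 0.54, edgeR, adjusted p = 0.000162), a call that needed the neural sums to pass the filter on counts. It was also the 1 member of 7 called between mural and endothelial cells (1.95 ± 0.60, adjusted p = 0.0121, background 20.7%, 9.17% higher) and between mural cells and microglia (4.33 ± 0.93, adjusted p = 0.000104, background 37.7%). The mural minus endothelial call was lost with DESeq2 (adjusted p = 0.459). In bulk the mural level of *Smarcd3* was 8.37% of the neural mean (3.59 to 17.3%). The 5 fibroblast markers summed to 8873 to 11802 normalized counts in mural and to 0 to 236 in endothelial and microglial libraries, and the mural library of brain N-346 was the highest for both this sum and *Smarcd3*. Of these markers 3 to 4 were at 0 in endothelial, 2 to 5 in microglial and 0 to 1 in mural libraries, and their part in the *Smarcd3* difference was not tested. Between endothelial cells and microglia 0 of 7 members passed edgeR (background 36.2%), and 0 of 7 had an unadjusted p under 0.05. The 6 other tested members, *Actl6a*, *Actl6b*, *Phf10*, *Ss18*, *Smarca2* and *Smarca4*, had log2 differences of -0.41 to 0.45 between mural and endothelial cells, of -0.10 to 1.55 between mural cells and microglia and of -0.50 to 1.57 between endothelial cells and microglia. *Smarcd3* had 2.38 in the last of these (edgeR, adjusted p = 0.12).

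*Phf10* and *Ss18* were not called by single-cell counts. *Phf10* stood at 28.0 CPM in neural, 40.0 in mural, 26.4 in endothelial and 33.6 in microglial cells, a neural difference of -0.33 ± 0.37 (edgeR, adjusted p = 0.516), where bulk gave 1.97. *Ss18* was lowest in neural cells in both (60.1 CPM against 82.5, 70.8 and 66.4), with a single-cell difference of -0.44 ± 0.29 (adjusted p = 0.243). The remaining members were too sparse for the filter on counts. *Dpf1* had 57 transcripts in neural (59.0 CPM), 5 in mural, 15 in endothelial (9.0 CPM) and 0 in microglial cells, *Ss18l1* had 37, 7, 6 and 2, and *Dpf3* had 3, 0, 3 and 0. Fitted without the filter, where *Actl6a* and *Smarca2* (adjusted p = 0.0598) were no longer called, the neural log2 differences were 4.54 for *Dpf1* (edgeR, adjusted p = 1.62e-15), 3.26 for *Ss18l1* (adjusted p = 7.62e-09) and 2.43 for *Dpf3* (adjusted p = 0.122), and *Dpf1* was higher in endothelial cells than in microglia (adjusted p = 0.00275). Plates 1, 2 and 3 held 56, 53 and 14 neural cells. Without plate 1, *Actl6b* alone of 4 tested members was called, without plate 2 *Actl6b* and *Smarca2* of 4, and without plate 3 *Actl6b*, *Smarca4*, *Smarca2*, *Smarcd3*, *Dpf1* and *Ss18l1* of 9. In these fits *Actl6b*, *Dpf1* and *Ss18l1* passed the filter on counts only through the neural sums in which they are high, so their calls add no support.

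**Figure D3:**
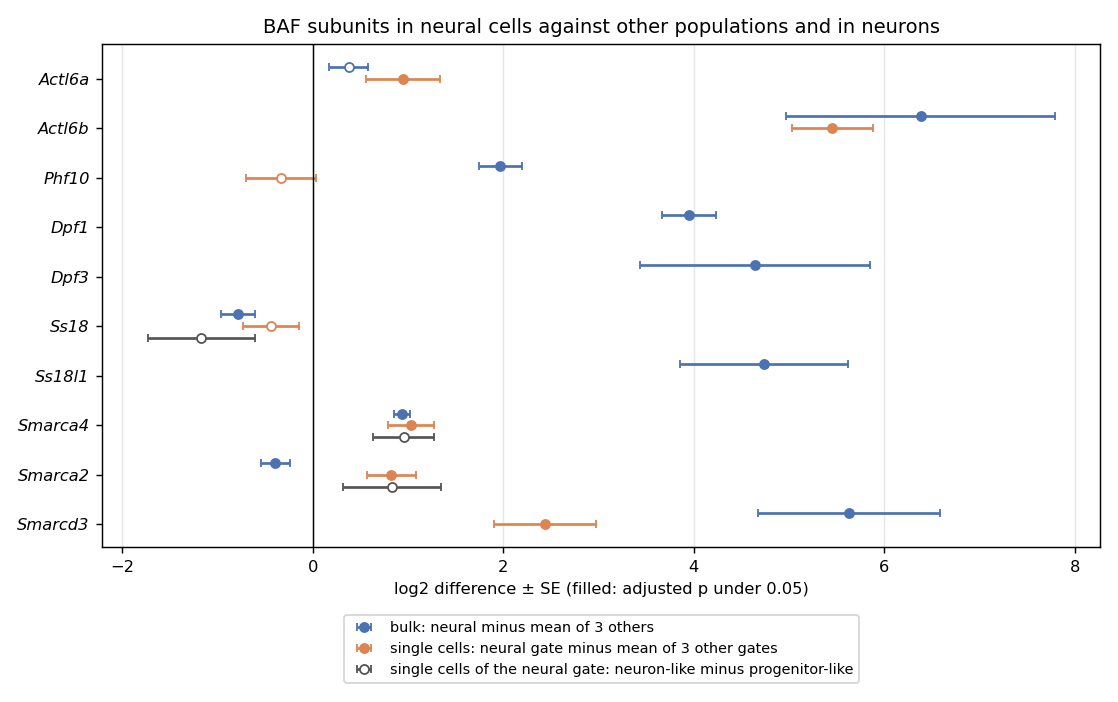
Log2 differences ± SE of the members between neural cells and the mean of the 3 other populations in bulk (limma) and single cells (edgeR), and between neuron-like and progenitor-like cells of the neural gate. Filled points have an adjusted p under 0.05, members below the filter have no point, and *Actl6b* is left out of the last series because progenitor-like cells had 0 transcripts. The bulk and single-cell points of *Phf10*, *Smarca2* and *Smarcd3* lie apart (1.97 against -0.33, -0.39 against 0.82, and 5.63 against 2.44).

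Within the neural gate, cells were split by the fixed neuron and progenitor markers into 89 neuron-like and 33 progenitor-like cells, with median depths of 7680 and 8066 transcripts. The split is a cut on a score and not a cell type, and 5 and 3 cells lay close to it. *Stmn2*, *Mapt* and *Ina* led the neuron-like cells and *Fabp7*, *Sox9* and *Ttyh1* the progenitor-like cells, and 6 and 4 of the top 10 genes were among the fixed markers. Plate 3 had 2 progenitor-like cells and gave no progenitor-like sum, which left 3 against 2 plates. At these numbers 3112 genes were tested, of which 17.6% were called (10.6% higher and 7.07% lower in neuron-like cells), and 4 members, of which 1 was called. That member, *Actl6b*, passed the filter on counts only through the neuron-like cells in which it is high, so the count of 1 in 4 is no support for a difference.

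Neuron-like cells held all *Actl6b* transcripts of the split. They had 62, 34 and 8 transcripts on plates 1, 2 and 3, and progenitor-like cells had 0 on each of plates 1 and 2. Pooled over plates these are 148 CPM against a floor of 11.6 CPM, which is what 3 transcripts over all progenitor-like cells would give. Neuron-like cells stood at 12.8-fold this floor, a ratio given as a description. The exact Poisson 95% upper limit for the 0 progenitor-like transcripts was 14.2 CPM, above this floor. Without plate 1 the ratio was 4.33-fold (42 transcripts, 107 CPM, against a floor of 24.7 CPM), without plate 2 it was 9.14-fold and without plate 3 it was 12.5-fold. The edgeR call (adjusted p = 0.00125) was lost without plate 1 (adjusted p = 0.0561) and without plate 2 (adjusted p = 0.0635). *Actl6b* was seen in 53.9% of neuron-like cells (exact 95% interval 43.0 to 64.6%) and in 0 of 33 progenitor-like cells (0 to 10.6%). The floor of 3 cells of 33 is 9.09%. Both are shares of cells with a transcript and set no limit on cells that express the gene. *Actl6a* had 18 transcripts in neuron-like (25.6 CPM) and 15 in progenitor-like cells (57.9 CPM), too few for the filter, and without it the difference was -0.88 ± 0.66 on the log2 scale (edgeR, adjusted p = 0.664).

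Counted by cell, 38 of the 89 neuron-like cells showed *Actl6b* without *Actl6a*, 10 showed both, 6 showed *Actl6a* alone and 35 showed neither. Of the 33 progenitor-like cells 13 showed *Actl6a* alone and 20 neither. A cell that shows neither may hold transcripts that were not sampled.

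The other exchanged subunits were sparse within the neural gate. *Dpf1* had 53 transcripts in neuron-like (75.3 CPM) and 4 in progenitor-like cells (15.4 CPM), and its log2 difference without the filter was 2.26 ± 0.72 (edgeR, adjusted p = 0.039). *Ss18l1* had 35 and 2 transcripts (49.7 and 7.72 CPM; adjusted p = 0.075 without the filter). *Ss18* had 32 and 26 (45.5 and 100.3 CPM), a difference of -1.17 ± 0.56 that did not pass the test (adjusted p = 0.177). *Phf10* had 18 and 9 (25.6 and 34.7 CPM), *Smarcd3* had 22 and 7 (31.3 and 27 CPM), and *Dpf3* had 3 and 0.

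*Smarca4* stood at 411, 466 and 182 CPM in neuron-like cells of plates 1, 2 and 3, and at 239 and 177 CPM in progenitor-like cells of plates 1 and 2. The plate 3 value of neuron-like cells lies between those of progenitor-like cells. The log2 difference was 0.95 ± 0.32 (edgeR, adjusted p = 0.0609), and it was called with plate as a block (1.12, adjusted p = 0.00041) and without plate 3 (1.10, adjusted p = 0.00571). *Smarca2* stood at 142 and 88.7 CPM, with a difference of 0.83 ± 0.51 (adjusted p = 0.297, and 0.0495 with the block).

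On the knockout plates, the targeted gene was examined first. Mof is encoded by *Kat8*, the catalytic subunit of a histone H4 acetyltransferase. In progenitor-like cells *Kat8* had 8 and 2 transcripts on wild-type plates 1 and 2 (39.9 and 14.8 CPM), and 3, 1 and 1 on knockout plates 4, 5 and 6 (5.16, 2.2 and 14.5 CPM). In neuron-like cells it had 5, 11 and 1 on plates 1, 2 and 3 (13.9, 33.4 and 12.6 CPM), and 6 and 6 on plates 5 and 6 (12.7 and 31.1 CPM). Over all plates this is 28.2 against 4.53 CPM in progenitor-like and 22.1 against 17.7 CPM in neuron-like cells. These counts were too low to test. 3′ tags need not fall in a deleted part, so the transcripts left do not check the labels.

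Cells of all gates were assigned to the same classes on both sets of plates, since the knockout gates were not given. There were 98 wild-type neuron-like cells (44, 41 and 13 on plates 1 to 3), 64 and 29 on knockout plates 5 and 6, and 44 wild-type progenitor-like cells on plates 1 and 2 (28 and 16) against 60, 50 and 9 on plates 4 to 6. Wild-type progenitor-like cells included 10 of the mural gate of plate 1. Each genotype was confined to its own plates, so genotype and plate cannot be told apart.

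No member was called between knockout and wild-type plates in either class, or for the difference between classes, out of 8 tested (edgeR). This stands beside a background of 0% of 6429 genes called in each of the 3 comparisons, with 327, 196 and 163 genes at an unadjusted p under 0.05 in progenitor-like cells, in neuron-like cells and for the difference between classes, and 1, 1 and 0 called by DESeq2.

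In neuron-like cells, *Actl6b* stood at 183, 115 and 100.6 CPM on wild-type plates 1, 2 and 3 and at 127 and 140 CPM on knockout plates 5 and 6, and the plates overlapped (log2 difference -0.02 ± 0.35). *Dpf1* stood at 86.2, 66.8 and 12.6 CPM against 144 and 109 CPM (1.06 ± 0.50). *Ss18l1* stood at 41.7, 69.9 and 12.6 against 78.3 and 83.1 CPM (0.81 ± 0.51). *Ss18* stood at 44.5, 60.8 and 0 against 21.2 and 20.8 CPM (-0.95 ± 0.57). None of these passed the test, as every adjusted p in neuron-like cells was 1 (edgeR). *Smarca4* stood at 398, 465 and 189 against 449 and 550 CPM (0.48 ± 0.30), and *Smarca2* at 209, 100.2 and 50.3 against 97.3 and 166 CPM (0.00 ± 0.59). *Smarcd3* stood at 36.1, 30.4 and 25.2 against 33.9 and 25.95 CPM, and *Actl6a* at 19.5, 30.4 and 12.6 against 14.8 and 20.8 CPM. *Phf10* (30.6, 24.3 and 25.2 against 16.9 and 31.1 CPM) and *Dpf3* (3 transcripts in each genotype) were not tested.

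In progenitor-like cells, *Actl6a* stood at 59.8 and 59.0 CPM on wild-type plates 1 and 2 and at 25.8, 46.3 and 0 CPM on knockout plates 4, 5 and 6 (log2 difference -0.83 ± 0.62, edgeR, adjusted p = 0.943). *Actl6b* had 0 and 0 transcripts on the wild-type and 2, 1 and 0 on the knockout plates, in 1.68% of the 119 knockout progenitor-like cells (exact 95% interval 0.204 to 5.94%). *Ss18* stood at 99.7 and 81.2 against 58.5, 59.5 and 57.9 CPM (-0.53 ± 0.49, adjusted p = 0.974). *Smarca4* stood at 269 and 177 against 291, 271 and 318 CPM (0.46 ± 0.33, adjusted p = 0.943). *Dpf1* stood at 24.9 and 0 against 17.2, 26.4 and 28.9 CPM, *Smarca2* at 115 and 59.0 against 108, 28.6 and 57.9 CPM, and *Smarcd3* at 29.9 and 29.5 against 49.9, 24.2 and 57.9 CPM. *Ss18l1* had 2 and 0 transcripts on the wild-type plates and 8, 7 and 0 on the knockout plates (log2 difference 1.20 ± 1.02, adjusted p = 0.969). *Phf10* (24.9 and 36.9 against 13.8, 24.2 and 43.4 CPM) and *Dpf3* (0 and 0 against 1, 1 and 0 transcripts) were not tested. For the difference between classes the 7 tested members other than *Actl6b*, which had 0 transcripts in wild-type progenitor-like cells, had log2 values of -0.51 to 0.48. The plate 6 values rest on 9 cells, and the highest of its 10 counts was 22 transcripts.

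**Figure D4:**
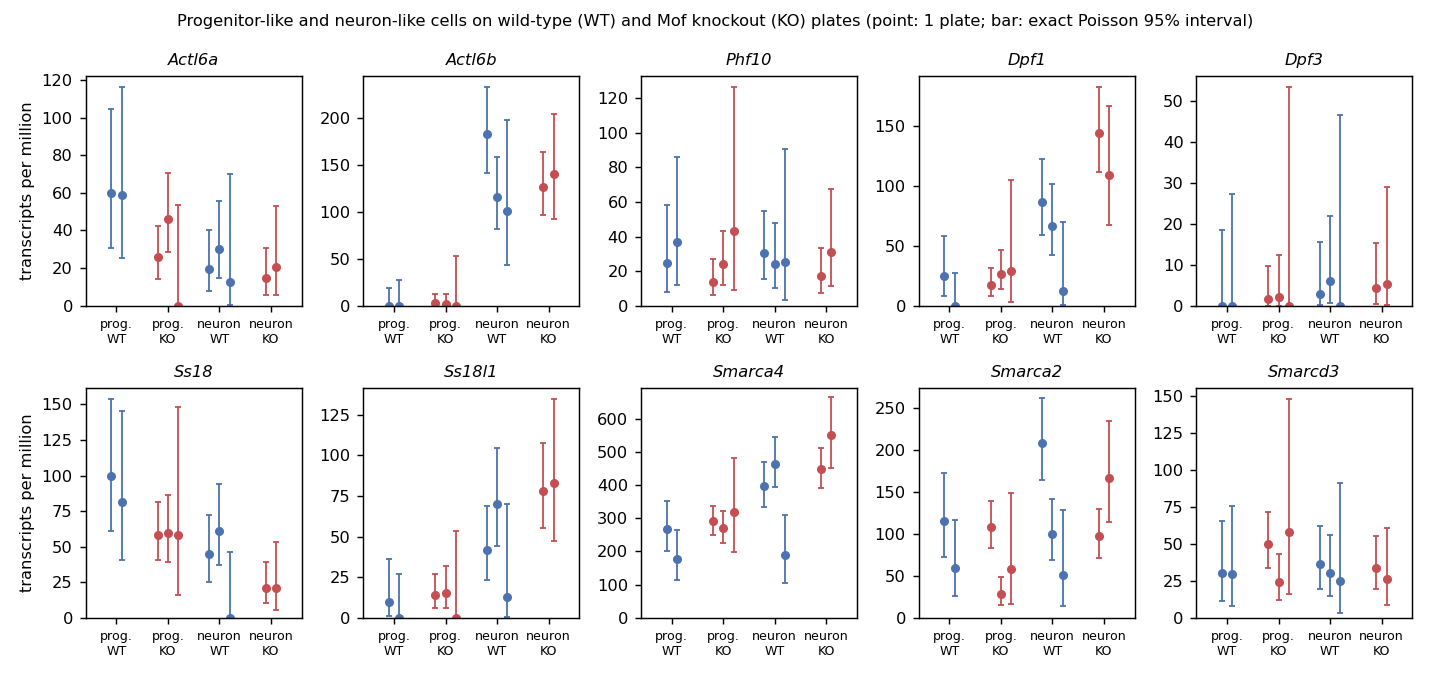
CPM (on the axis, transcripts per 1000000) of the 10 members in progenitor-like and neuron-like cells, one point for each wild-type (blue) or knockout (red) plate with its exact Poisson 95% interval, which covers counting error only. *Actl6b* is near 0 in progenitor-like cells of both genotypes and between 100.6 and 183 in neuron-like cells, and none of the 8 members tested across plates was called between genotypes.

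Outside the neural lineage each knockout plate held mostly one population, and values are given without a test. Mural-like cells (274 on plate 4) had 15.7 CPM of *Smarcd3* there and 0 transcripts in the 10 such cells of plate 6, against 24.3, 29.2 and 10.8 CPM on wild-type plates 1 to 3. Endothelial-like cells (302 on plate 6) had 7.5 CPM of *Dpf1* against 7.9, 9.7 and 22.8 CPM, and 0 *Actl6b* transcripts. Microglial-like cells (80 on plate 5) had 131 CPM of *Smarca4* against 119, 122.7 and 0 CPM, where the last value comes from 6 cells.

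The other BAF and PBAF subunits, a list of 20 genes, were compared in the same fits. In bulk, 14 were higher and 1 lower in neural cells (background 32.9% higher, 31.2% lower). The median log2 difference was 1.41 over the list, against 0.09 over all genes. The largest differences were those of *Bcl11b* (5.13 ± 0.71), *Bcl11a* (4.30 ± 0.18) and *Bcl7a* (4.03 ± 0.46), and *Bcl7b* was the 1 lower (-1.05 ± 0.15, limma). The first pair encodes zinc-finger transcription factors of cortical projection neurons and lymphocytes that join the complex. In single cells 10 of 19 tested were higher in neural cells (background 22.5%), led by *Bcl11b* (5.66 ± 0.32), *Bcl11a* (4.33 ± 0.23) and *Bcl7a* (2.90 ± 0.29), and *Smarcd2* was lower (-2.21 ± 0.54, edgeR, background 17.3%). Between neuron-like and progenitor-like cells 3 of 15 were called, all higher (background 17.6%, 10.6% higher), namely *Bcl11a* (2.20 ± 0.30), *Bcl11b* (2.19 ± 0.33) and *Smarcc2* (1.57 ± 0.28), a scaffold subunit. In mural against endothelial bulk libraries (background 13.5% higher, 14.3% lower) *Bcl11a* (2.46 ± 0.22) and *Smarcb1* (0.89 ± 0.18) were higher, and 4 of 20 were lower, led by *Smarcd1* (-2.63 ± 0.42), *Smarcd2* (-2.14 ± 0.39) and *Smarcc2* (-0.84 ± 0.24). In mural against microglial libraries (background 17.9% higher, 20.1% lower) 6 were higher, led by *Bcl11a* (2.52 ± 0.22), *Bcl7c* (1.64 ± 0.19) and *Smarce1* (0.93 ± 0.15), and 4 lower, led by *Smarcd2* (-2.15 ± 0.39), *Smarcd1* (-1.57 ± 0.42) and *Bicra* (-1.24 ± 0.41). In endothelial against microglial libraries (background 15.3% higher, 17% lower) *Bcl7c* (1.14 ± 0.19) and *Smarce1* (0.78 ± 0.15) were higher and *Bcl7a* lower (-1.96 ± 0.56). In single cells *Bcl11a* was higher in mural than in endothelial cells (2.31 ± 0.42), *Bcl11a* (2.04 ± 0.44), *Bcl7c* (1.88 ± 0.50) and *Smarcb1* (0.78 ± 0.31) were higher in mural cells than in microglia, and *Bcl11b* (2.55 ± 0.92) and *Smarcd1* (1.81 ± 0.46) in endothelial cells than in microglia. These are 1, 3 and 2 of 19 tested, beside backgrounds of 9.17%, 18.8% and 18.7% of genes called higher. On the knockout plates 0 of 17 were called by edgeR in each class (background 0%).

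ATPases of other remodelling families, a list of 16 genes, had 11 higher and 2 lower in neural bulk libraries (background 32.9% higher, 31.2% lower), with a median of 0.56. *Smarca1* overlapped between neural (1215 to 1233 normalized counts) and mural libraries (1064 to 1367), with 3.54 to 169 in endothelial and 3.57 to 8.81 in microglial libraries. The higher ones were led by *Chd5* (7.70 ± 0.98), *Smarca1* (4.26 ± 0.82) and *Chd3* (3.62 ± 0.16), and *Atrx* (-1.04 ± 0.10) and *Hells* (-0.56 ± 0.18) were lower (limma). In single cells 4 of 14 were higher in neural cells (background 22.5%), led by *Smarca1* (2.30 ± 0.44), *Chd3* (1.97 ± 0.22) and *Chd9* (1.15 ± 0.25), and 0 were lower (edgeR, background 17.3%). Between neuron-like and progenitor-like cells *Chd3* was higher (0.97 ± 0.30) and *Hells*, a helicase of dividing cells, lower (-3.10 ± 0.43) out of 12 tested (background 10.6% higher, 7.07% lower). Among the non-neural bulk libraries *Smarca1* and *Chd9* were higher and 7 genes lower in mural than in endothelial cells (background 13.5% higher, 14.3% lower), *Smarca1* and *Chd3* higher and 7 lower in mural cells than in microglia (background 17.9% higher, 20.1% lower), and 4 higher and 5 lower in endothelial cells than in microglia (background 15.3% higher, 17% lower). *Smarca1*, which encodes an ISWI-family ATPase, was higher in mural cells by 5.44 ± 1.0 and 7.37 ± 1.0 in the first 2 of these (limma). On the knockout plates 0 of 13 were called by edgeR in each class (background 0%).

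The genes whose bulk pattern was most like that of each member were found by Pearson's r of log2(normalized count + 1) over the 12 libraries, which share 3 brains and 2 kinds of kit, among 19765 genes. Those for *Actl6b* included *Myt1l* (0.95) and *Klhl22* (0.95), for *Ss18l1* they were *Nefl* (0.97), *Map3k13* (0.96) and *Epha3* (0.96), and for *Smarcd3* they were *Syt4* (0.96), *Kifc1* (0.96) and *Nudt11* (0.95). Those for *Dpf1* included *Adgrl1* and *Cenpb* (each 0.99), and *Dpf3* was most like *Slit2*, *Gtf2i* and *Ddit4* (each 0.94). *Phf10* was most like *Smarcad1* (0.99), *Avl9* (0.98) and *Brd1* (0.98), and *Smarca4* most like *Mul1*, *Uck2* and *Dpp9* (each 0.98). *Smarca2* was most like *Mindy2* (0.95), *6430710M23Rik* (0.95) and *Edn1* (0.94), and *Actl6a* most like *A330035P11Rik* (0.93), *Mocs2* (0.92) and *Dpf2* (0.92), another PHD-finger subunit of the complex. Those for *Ss18* included *Gm1826* (0.94) and *Ddx41* (0.92).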

How the data were processed

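Bulk libraries were 12 (3 wild-type brains, 4 sorted populations), and single-cell libraries (mCEL-Seq2) came from wild-type plates 1 to 3 and knockout plates 4 to 6. The submitters' processing notes name BWA 0.6.2-r126, STAR, featureCounts, DESeq2 and the mm10 build without their roles. The bulk values were deposited as signal, namely read counts that the authors divided by a size factor for each library. All (100%) of 124078 low values were whole reads to within 0.01 after that factor was undone. The single-cell tables were deposited as transcript counts corrected by the authors for repeated identifiers, and all 4.42897e+06 values above 0 followed that formula. No column went unused (0 of other samples).

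For bulk, log2(normalized count + 1) of genes with a mean of at least 10 was fitted with limma 3.58.1, all 4 populations in one fit. For single cells, wells above 1500 transcripts were kept, rounded sums for each plate and group of at least 5 cells were tested with edgeR 4.0.16 (quasi-likelihood), and classes came from fixed marker lists. No doublet caller was run, no pair of kept cells was identical (0), and the well barcodes are the same numbered set in every library. Called means a Benjamini-Hochberg adjusted p under 0.05 over all genes tested. Levels between genes are per kilobase of exon (GENCODE vM21). Of the fits, those by limma and edgeR were tested on simulated data. Alternatives were edgeR and DESeq2 1.42.0, no filter, other pseudocounts, quantile normalization, a 2-fold minimum, a brain or plate block, 3000 transcripts per cell, populations from markers, cells near the class cut left out, and each brain or plate left out. The brain numbers pair the bulk libraries because they mark the same brain, and correlations of same-brain deviations were -0.054 to 0.0801. The gates share plates. R 4.3.3 and Python 3.11.15 were used, the latter with pandas 2.3.3, matplotlib 3.10.9, scipy 1.17.1 and numpy 2.4.6.

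The members, the lists and the tests were chosen with earlier results of these data known. The rule names all members in each comparison, singly or within a range over those tested, and of each other list up to 3 called genes with the largest differences in each direction. For some bulk comparisons of the ATPase list only counts and examples are given, and some genes with a pattern like a member's are not reported here. The columns of the table of sort gates were used to place wild-type wells.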

Additional observations from a re-analysis of the deposited data

Results flagged for a closer look

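Among mural-like knockout cells of plate 4 (274 cells), which enter no comparison, 2 members had a level whose exact Poisson 95% interval lay above the value of every wild-type plate, while the plates' own intervals overlap it. *Dpf1* reached 7.61 CPM (4.43 to 12.2, 17 transcripts), against 1.73, 3.65 and 0 CPM in mural-like cells of wild-type plates 1, 2 and 3 (1, 3 and 0 transcripts). *Smarca4* reached 206 CPM (188 to 226, 461 transcripts), against 177, 162 and 163 CPM (102, 133 and 15 transcripts). The wild-type intervals reach 9.65, 10.7 and 39.97 CPM for *Dpf1* and 215, 192 and 268 CPM for *Smarca4*. The 10 mural-like cells of knockout plate 6 held 0 *Dpf1* and 13 *Smarca4* transcripts (224 CPM, 119 to 382). Neither difference was tested, and plate and genotype cannot be told apart. The share of all genes with such a level is not given, so the count of 2 is no result about the members.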

How the results depend on the processing

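No member's called log2 difference reversed under any alternative run. Of 964 repeats of a member's difference, 914 kept their side of the threshold, 43 lost the call and 7 gained it. Of 122 repeats of the count of called members, 100 stayed within 1.5 times. The count fell from 3 to 0 in bulk mural against microglial cells with a 2-fold minimum. In the single-cell gates it fell from 5 to 3 for neural cells with DESeq2 and also with a 2-fold minimum, from 1 to 0 between mural and endothelial cells with DESeq2, and rose from 0 to 1 (*Dpf1*) between endothelial cells and microglia with no filter and with populations taken from the markers. Between neuron-like and progenitor-like cells it rose from 1 to 2 with no filter and with cells close to the cut left out, and to 3 with the plate as a replicate block. Quantile normalization moved the median log2 difference of all genes in neural bulk libraries from 0.09 to -0.16, and DESeq2 moved it to 0.19 for both single-cell comparisons with microglia, with every called member in its direction. The brain block changed no bulk call other than that of *Actl6a* between mural cells and microglia, and the plate block changed no call of the gates. No plate block was run for the knockout comparisons, where each genotype has its own plates. Leaving out each replicate gave 7 to 8 members for neural bulk, 2 to 3 for mural against endothelial, 1 for mural against microglial and 2 to 3 for endothelial against microglial bulk. For the gates it gave 1 to 6 for neural cells and 0 to 1 for the other 3 comparisons, for neuron-like against progenitor-like cells 0 to 3, and 0 for the knockout comparisons. Counts for the neural gate include *Actl6b*, and without plate 3 also *Dpf1* and *Ss18l1*, which passed the filter only through the neural sums. The causes of these moves were not tested. Counts of genes moved too. With DESeq2 the gates gave 2419 (neural, 3694 by edgeR), 794 (mural against endothelial, 1919), 2074 (mural against microglial, 3498) and 1905 genes (endothelial against microglial, 3358), and the neuron-like comparison 272 (549), or 887 with the plate block. Without plate 1 or 2 the gates gave 1508 and 1523, 594 and 571, 1446 and 1480, and 1291 and 1308 genes in that order, and without plate 1, 2 or 3 the neuron-like comparison gave 109, 4 and 964. Bulk mural against endothelial cells fell from 5496 to 3519 genes without brain N-343. Knockout counts of 0 rose to 25 (progenitor-like), 19 (neuron-like) and 7 (the difference between classes) without the filter, and to between 1 and 10 with a plate left out, DESeq2 or cells close to the cut left out. Sparse transcripts limited *Dpf3*, *Ss18l1* and *Dpf1* in single cells.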
